A study of Mus musculus with 4 samples.

Results

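Heat shock chaperones are proteins that fold, refold and disaggregate other proteins. The gene set described here holds 40 listed genes of the cytosolic and mitochondrial chaperones, their cochaperones and the CCT folding complex. Members were listed by gene name, with earlier results of these data known. A gene entered where a probe set was annotated to its symbol and no other. By that rule 37 of the 40 were measured, among 19938 genes in all. Hspa1b had a reading only through a probe set shared with Hspa1a, given below as such, and Hsp90ab1 and Hsf1 were not analysed here. The set is wider than a cytosolic one, since Hspa9, Hspd1, Hspe1, Trap1 and Dnaja3 encode mitochondrial chaperones, Dnajb14 encodes a J protein of the endoplasmic reticulum (ER) membrane, and Hspb11 encodes a protein of intraflagellar transport despite its name.

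The samples were plasmacytoid dendritic cells (pDCs), dendritic cells known for their large output of type I interferon, sorted as mature cells from mouse spleen. There were 2 Flt3 knockout (Flt3 KO) samples and 2 wild-type (WT) samples, labelled biological replicates, each on its own whole-transcript array. All 4 came from mice at steady state whose spleens had been dissociated with collagenase B and DNase, and no strain, age, sex or knockout allele is given in the labels. Neither is it given whether a sample was 1 mouse or a pool, so p-values measure the spread between these samples, which may be technical. The product of Flt3 is a cytokine receptor of the tyrosine kinase type that dendritic cells need to develop.

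Heat shock factor 1 is the transcription factor that drives chaperone genes when unfolded protein accumulates. It binds inverted repeats of a short GAA-containing unit, the heat shock element, and its most inducible targets in mammals include Hspa1a, Hspa1b, Hspb1, Hsph1 and Dnajb1. The same inducible genes, with immediate early genes such as Fos and Jun, are known to respond to warm enzymatic tissue dissociation. The genotypes were compared for these genes as a check on tissue handling.

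The array signal of Flt3 itself was 8.46 and 8.61 in the Flt3 KO arrays, against 10.71 and 10.77 in the WT arrays (log2 intensity, replicates 1 and 2 here and below). It fell by 2.21 on the log2 scale in Flt3 KO pDCs (standard error, SE, 0.066; limma adjusted p = 7.4e-05). Across genes, which are not independent replicates, Pearson r was 0.997 between replicates and 0.994 to 0.995 between arrays of different genotype. Of 14 pDC markers 12 were measured. Their mean was 11.15 in both Flt3 KO arrays, against 11.46 and 11.44 in the WT arrays. In limma 6 of the 12 were lower and 0 higher, where 1.31% of all genes were lower. Among them Cox6a2 fell by 0.76, Tlr7 by 0.49, Spib by 0.47 and Ccr9 by 0.43. Counts of markers past the limma threshold, higher and then lower in Flt3 KO, were 0 and 1 of 8 for conventional dendritic cells (Flt3 itself), 1 and 1 of 5 for plasma cells, and 0 and 0 for B cells (4 measured), T cells (4), NK cells (5), neutrophils (5) and erythroid cells (2). Without adjustment (p under 0.05), 3 markers of those last 5 lists were higher and 3 were lower. By list, the share in either direction was 25% for B cells, 75% for T cells, 20% for NK cells, 20% for neutrophils and 0% for erythroid cells. Of the 8 conventional dendritic cell markers, 3 were higher and 1, Flt3, was lower by that p (50%). Of all genes, 17.1% had such a p in either direction.

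The promoters of 5 members are shown because they carry heat shock element letters and because the spread of the first 4 genes, described next, was wide or could not be separated from a copy. Each is the 250 bases upstream of the RefSeq start on GRCm38.p6, 5′ to 3′ on the gene's strand, with matches to GAANNTTC or TTCNNGAA in capitals. The windows are Hspa1a at chr17:34972157-34972406 (minus strand), Hspa1b at chr17:34959239-34959488 (minus), Hspb1 at chr5:135887669-135887918 (plus), Hsph1 at chr5:149636316-149636565 (minus) and Hspe1 at chr1:55087898-55088147 (plus).
Hspa1a: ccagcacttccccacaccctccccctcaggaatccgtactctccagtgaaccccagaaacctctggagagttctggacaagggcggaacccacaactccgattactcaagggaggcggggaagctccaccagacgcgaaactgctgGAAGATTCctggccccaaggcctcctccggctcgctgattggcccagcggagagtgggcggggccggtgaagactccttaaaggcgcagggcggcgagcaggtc
Hspa1b: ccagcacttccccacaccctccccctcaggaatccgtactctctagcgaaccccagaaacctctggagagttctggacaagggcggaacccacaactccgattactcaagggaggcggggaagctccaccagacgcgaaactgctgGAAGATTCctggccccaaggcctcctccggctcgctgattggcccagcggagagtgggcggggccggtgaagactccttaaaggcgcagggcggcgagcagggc
Hspb1: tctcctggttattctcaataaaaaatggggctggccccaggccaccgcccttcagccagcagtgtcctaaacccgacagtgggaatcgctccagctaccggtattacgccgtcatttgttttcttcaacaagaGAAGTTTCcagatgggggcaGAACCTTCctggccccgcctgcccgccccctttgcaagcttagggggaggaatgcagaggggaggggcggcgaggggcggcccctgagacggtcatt
Hsph1: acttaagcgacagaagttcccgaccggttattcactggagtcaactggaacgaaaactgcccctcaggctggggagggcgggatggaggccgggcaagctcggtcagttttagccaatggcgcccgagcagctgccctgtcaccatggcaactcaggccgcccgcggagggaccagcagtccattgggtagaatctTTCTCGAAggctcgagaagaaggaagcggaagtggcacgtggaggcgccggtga
Hspe1: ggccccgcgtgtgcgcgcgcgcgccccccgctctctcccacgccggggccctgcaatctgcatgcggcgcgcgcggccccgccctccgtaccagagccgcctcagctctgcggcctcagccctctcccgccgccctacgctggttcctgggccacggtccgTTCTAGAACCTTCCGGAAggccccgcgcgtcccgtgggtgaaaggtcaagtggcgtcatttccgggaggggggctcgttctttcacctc

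The Hspa1a and Hspa1b windows were identical in 247 of 250 aligned columns (98.8%), and each held 1 match, at −104 from the start. Hspb1 had matches at −117 and −97. Hspe1 had 3 overlapping matches, starting at −89, an uninterrupted run of repeat units, and Hspd1, its divergent neighbour, shares that stretch on the opposite strand. In the windows of 250 bases upstream to 50 downstream that RefSeq starts gave for 33 of the 40 members (43 windows), GAANNTTC occurred in 13 windows (30.2%), against 7.86% of all 32851 windows. TTCNNGAA occurred in 10 (23.3%), against 8.52%. Each motif is its own reverse complement, so both strands were read at once. A run of 3 units, which contains both motifs, occurred in 7 member windows from Chordc1, Dnajb6, Hspd1, Hspe1 and Hsph1, against 0.603% of all windows. Several of these windows overlap, and a match describes letters only. The RefSeq windows of Dnajb1 held no match.

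No member of the set differed between genotypes past the threshold. In limma, 0 of 37 had an adjusted p under 0.05, where 2.39% of all genes did (1.08% higher and 1.31% lower in Flt3 KO). At an unadjusted p under 0.05 there was 1 member, Dnaja3, or 2.70% of the set, against 17.1% of all genes. The median difference of the members, Flt3 KO minus WT, was 0.01 on the log2 scale, beside −0.001 over all genes, and their median absolute difference was 0.077, beside 0.097. Differences ran from −0.22 for Dnaja3 to 0.74 for Hspb1, with 22 above and 15 below 0. Values of the genotypes did not overlap for 12 members (32.4%), 2 with Flt3 KO above WT and 10 below, against 47.2% of all genes. In 30 of 37 members (81.1%) the larger of the 2 gaps between replicates exceeded the difference between genotypes, as it did in 64.7% of all genes. The larger of 2 gaps between single arrays tends to exceed a difference of 2-array means even without a genotype effect. This count therefore cannot show where the spread lay.

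The inducible Hsp70 gene Hspa1a, whose product refolds proteins after stress, read 8.73 and 7.49 in the Flt3 KO arrays, against 8.51 and 7.52 in the WT arrays. The genotypes overlapped fully, and within each of them replicate 1 lay about 1 log2 unit above replicate 2. The gap was 1.24 in Flt3 KO, the rank 13 gap of 19938 genes, and 0.99 in WT, rank 7. The difference between genotypes was 0.09 with a 95% interval of −0.90 to 1.09 (limma adjusted p = 0.94). The probe set annotated to Hspa1a and Hspa1b together gave 8.53 and 7.51 in Flt3 KO arrays and 8.24 and 7.51 in WT arrays. It showed the same order of arrays, and it cannot be assigned to either gene. Whether the probe set annotated to Hspa1a alone also reads Hspa1b was not tested.

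**Figure D1:**
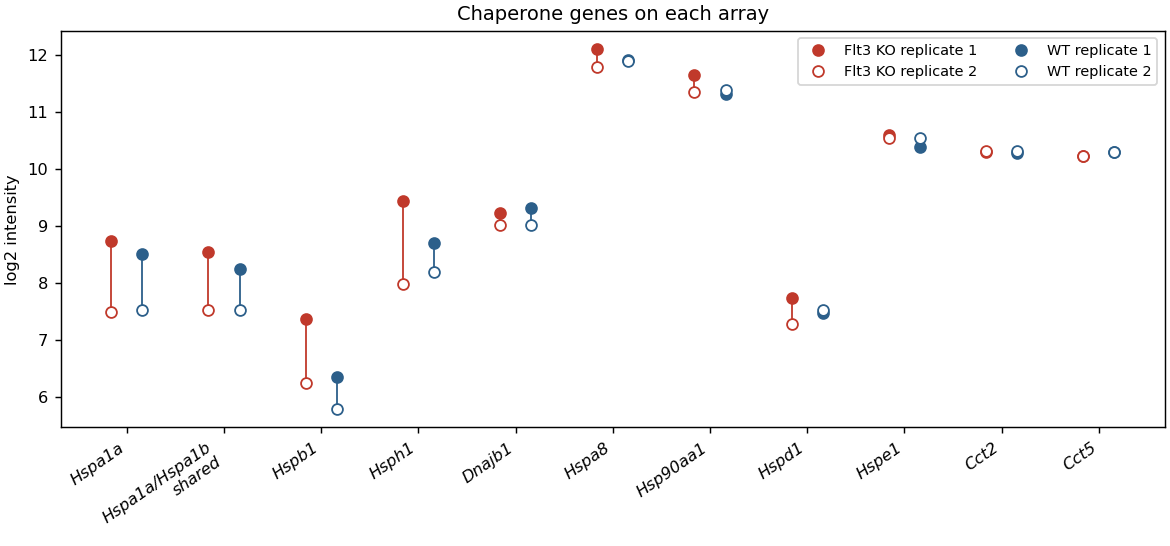
Log2 intensity of 10 chaperone genes and of the probe set shared by Hspa1a and Hspa1b on each array, Flt3 KO in red left of WT in blue, filled for replicate 1 and open for replicate 2; the line joins the replicates of a genotype. Hspa1a, Hspb1 and Hsph1 sit apart between replicates (8.73 against 7.49 for Hspa1a in Flt3 KO), whereas the 4 arrays of Cct2 and Cct5 almost coincide.

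Hspb1, whose small heat shock protein holds unfolded clients without ATP, read 7.36 and 6.23 in the Flt3 KO arrays, against 6.34 and 5.77 in the WT arrays. Flt3 KO replicate 1 stood above the rest, and Flt3 KO replicate 2 lay between the WT replicates. Its difference of 0.74 was the largest of the set but did not pass (interval −0.06 to 1.55, limma adjusted p = 0.33). A second, dimmer probe set annotated to Hspb1 read 7.38 and 6.06 in Flt3 KO and 6.17 and 5.53 in WT, in the same order. Leaving out Flt3 KO replicate 1 gave a difference of 0.18, and leaving out Flt3 KO replicate 2 gave 1.31. Hspb11, the intraflagellar transport gene, read 6.85 and 6.74 in Flt3 KO, against 6.98 and 6.89 in WT, a difference of −0.14 (adjusted p = 0.46 in limma).

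The Hsp110 proteins act as nucleotide exchange factors that reset Hsp70 after each folding cycle. Hsph1, the heat-inducible one, read 9.43 and 7.98 in the Flt3 KO arrays, against 8.69 and 8.19 in the WT arrays. Both the highest and the lowest value belonged to Flt3 KO. The gap between replicates was 1.45 in Flt3 KO, rank 9 of all genes, and 0.51 in WT, rank 132, and the genotype difference was 0.27 (interval −0.70 to 1.23, limma adjusted p = 0.80). Its sign turned with a single array. The difference was −0.46 with Flt3 KO replicate 1 left out and 0.99 with Flt3 KO replicate 2 left out. Hsph1 lies on chromosome 5, as does Flt3, with 14 protein-coding genes between them in the RefSeq table. All 14 were measured, and 0 passed in limma, where 2.39% of all genes did. At an unadjusted p under 0.05 there was 1, where 17.1% of all genes had such a p. Differences of the 14 ran from −0.30 to 0.13. Hspa4, the constitutive Hsp110 gene, read 9.10 and 8.94 in Flt3 KO, against 8.94 and 9.002 in WT.

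Hspa8 encodes the constitutive Hsp70 that serves protein folding in unstressed cells. It read 12.10 and 11.78 in the Flt3 KO arrays, against 11.92 and 11.89 in the WT arrays, with a difference of 0.04 (interval −0.18 to 0.26). The WT values lay between the Flt3 KO values, and 2 dimmer probe sets gave −0.03 and −0.01. Hspa2, best known as a testis Hsp70, read 6.05 and 5.91 in Flt3 KO, against 5.88 and 5.89 in WT. Hspa14, a ribosome-associated Hsp70, read 8.002 and 7.98 in Flt3 KO, against 8.17 and 8.07 in WT. These genotypes did not overlap for Hspa2 or Hspa14, yet their differences of 0.10 and −0.13 had limma adjusted p of 0.65 and 0.40.

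Hsp90aa1, the stress-responsive cytosolic Hsp90 gene, read 11.65 and 11.36 in the Flt3 KO arrays, against 11.32 and 11.39 in the WT arrays. Again Flt3 KO replicate 1 was the highest array, and the other arrays lay close together. Its difference was 0.15 (interval −0.06 to 0.36, limma adjusted p = 0.45), and its other probe sets gave 0.11 and 0.06. Stip1 (HOP), which hands clients from Hsp70 to Hsp90, read 9.75 and 9.46 in Flt3 KO, against 9.47 and 9.52 in WT. Ahsa1, an activator of the Hsp90 ATPase, read 9.17 and 8.93 in Flt3 KO, against 9.10 and 9.16 in WT. The Hsp90 cochaperone gene Chordc1 read 6.07 and 5.86 in Flt3 KO, against 6.08 and 6.02 in WT. Stip1 was highest in Flt3 KO replicate 1, and Ahsa1 and Chordc1 were lowest in Flt3 KO replicate 2. The p23 gene Ptges3, the remaining cochaperone, differed by −0.07, and its other probe sets by 0.10 and 0.06, so its direction was not settled.

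J proteins bring clients to Hsp70 and stimulate its ATPase. Dnajb1, the inducible partner of Hspa1a, read 9.22 and 9.01 in the Flt3 KO arrays, against 9.31 and 9.02 in the WT arrays. Its arrays took the same order within genotypes as those of Hspa1a, but with gaps of 0.20 and 0.29, and the genotype difference was −0.05 (interval −0.30 to 0.21). Dnajb4 read 6.03 and 5.76 in Flt3 KO and 5.79 and 5.73 in WT, Flt3 KO replicate 1 standing highest. Dnajb6, whose product suppresses protein aggregation, read 8.43 and 8.24 in Flt3 KO and 8.20 and 8.25 in WT. Dnaja1 read 9.58 and 9.28 in Flt3 KO and 9.23 and 9.43 in WT. In all of these the genotypes overlapped, and the differences were 0.14, 0.11 and 0.10. The other J protein genes, Dnaja2, Dnajb14, Dnajc5 and Dnajc7, differed by −0.07 to 0.02.

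The BAG proteins release nucleotide and client from Hsp70. Bag3, an inducible one linked to autophagy, read 5.89 and 5.87 in the Flt3 KO arrays, against 5.72 and 5.91 in the WT arrays. Bag1 read 8.36 and 8.38 in each genotype, a difference of 0.0003. Hsf2, a heat shock factor of development, read 5.37 and 5.59 in Flt3 KO, against 5.25 and 5.55 in WT. Here replicate 2 was the higher one in both genotypes. The means of 3 members over the 4 arrays were under 5.89, the median gene's mean, and values this dim are less certain; they were Dnajb4, Bag3 and Hsf2.

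Among mitochondrial chaperones, Dnaja3, a J protein gene, read 6.95 and 7.004 in the Flt3 KO arrays, against 7.25 and 7.15 in the WT arrays. Both Flt3 KO values lay below both WT values. The difference of −0.22 had an interval of −0.40 to −0.04, the sole interval of the set without 0, and did not pass after adjustment over all genes (limma adjusted p = 0.21). Trap1, the mitochondrial Hsp90, read 7.87 and 7.84 in Flt3 KO, against 7.97 and 7.96 in WT, a difference of −0.11 (adjusted p = 0.44 in limma). Hspe1, which caps the Hsp60 folding chamber, read 10.60 and 10.53 in Flt3 KO, against 10.39 and 10.55 in WT. The Hsp60 gene Hspd1 read 7.74 and 7.27 in Flt3 KO, against 7.46 and 7.52 in WT, so that the WT values lay between those of Flt3 KO. A dimmer probe set of Hspd1 differed by −0.15, where the brighter one gave 0.01. The mitochondrial Hsp70 gene Hspa9 differed by −0.06.

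The CCT complex is a ring that folds actin and tubulin, and its subunits are encoded by Tcp1 and the Cct genes. All 8 measured subunits lay within −0.07 and 0.12 of no difference, 5 above and 3 below 0. Cct8 read 9.07 and 8.96 in the Flt3 KO arrays, against 8.76 and 9.04 in the WT arrays. For Cct4 the values were 7.91 and 7.88 in Flt3 KO and 7.86 and 7.77 in WT, and for Tcp1 they were 8.27 and 8.23 in Flt3 KO and 8.24 and 8.40 in WT. WT replicate 1 set the low end for Cct8, and WT replicate 2 the low end for Cct4 and the high end for Tcp1. Cct2, Cct3, Cct5, Cct6a and Cct7 differed by −0.07 to 0.05. Intervals of the 8 subunits ran from −0.24 (Tcp1) to 0.35 (Cct8).

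**Figure D2:**
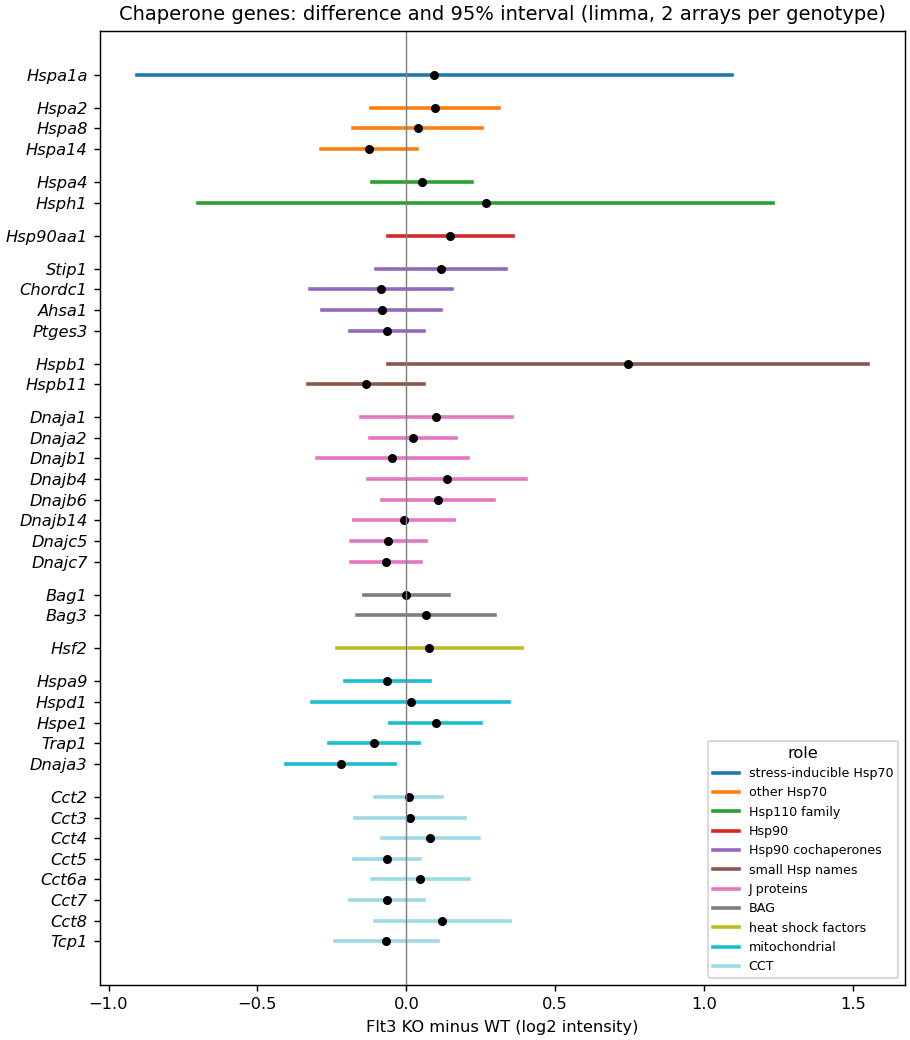
Difference in log2 intensity, Flt3 KO minus WT, of the 37 measured chaperone genes (points) with limma's 95% interval (lines), grouped by role. All intervals include 0 except that of Dnaja3 (−0.40 to −0.04), and those of Hspa1a, Hsph1 and Hspb1 are the widest.

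Leaving Hspa1a, Hsph1 and Hspb1 aside, a choice made after their values were seen, the intervals of the other 34 members reached no lower than −0.40 (Dnaja3) and no higher than 0.40 (Dnajb4). For these 3 genes the arrays leave differences of more than 1 log2 unit within the interval. The other 34 members had a median gap between replicates of 0.10 in Flt3 KO and 0.066 in WT, beside 0.092 over all genes in both genotypes. Flt3 KO replicate 1 was nonetheless above Flt3 KO replicate 2 in 27 of the 34, and in 30 of all 37, against 48.6% of all genes. The same array was also the higher one in 18 of 20 genes of the ER chaperone list (90.0%). It was the higher one in 7 of 8 further small heat shock protein genes (87.5%) and in 46 of all 86 further chaperone genes (53.5%). In WT, replicate 1 was the higher one in 14 of 37, against 49.6% of all genes. After the 3 wide genes, the largest gaps in Flt3 KO were those of Hspd1 (0.46), Hspa8 (0.32), Dnaja1 (0.30), Hsp90aa1 (0.29) and Stip1 (0.29). Their gaps in WT were −0.06, 0.02, −0.20, −0.08 and −0.05. On the probe sets used, replicate 1 was thus not the higher WT array for 4 of these 5 genes. Dimmer probe sets had WT gaps of 0.06 for Dnaja1, 0.0014 and 0.17 for Hsp90aa1, and −0.01 and 0.008 for Hspa8. The WT direction of these 3 genes was therefore not settled. A dimmer probe set of Hspd1 had a gap of 0.11 in Flt3 KO and −0.06 in WT.

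Hspa1a, Hsph1 and Hspb1 were among 23 genes of the whole table in which replicate 1 exceeded replicate 2 by at least 0.5 in both genotypes; the opposite held for 2 genes. The rest of the 23 included antibody gene segments and several genes of connective tissue and the mesothelium. Another antibody gene segment, Igkv4-91, was among the 2 of opposite order, with gaps of −1.19 in Flt3 KO and −1.11 in WT. For the 5 members with a run of 3 heat shock element units in a RefSeq window, the gap in Flt3 KO varied. It was 1.45 for Hsph1, 0.46 for Hspd1, 0.21 for Chordc1, 0.19 for Dnajb6 and 0.06 for Hspe1. Dimmer probe sets of Hspd1 and Hspe1 had gaps of 0.11 and 0.18, so the order of these 2 genes was not settled. Hspa1a and Hspb1, shown above with isolated matches only, had 1.24 and 1.13.

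**Figure D3:**
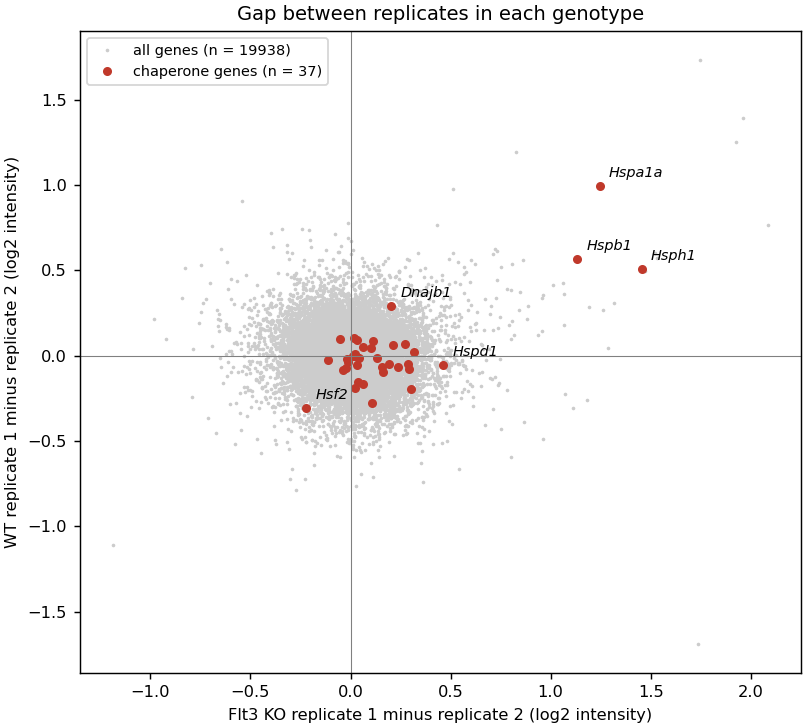
Log2 intensity of replicate 1 minus replicate 2 in Flt3 KO (horizontal) and in WT (vertical) for all 19938 genes in grey and 37 chaperone genes in red. Hspa1a (1.24 and 0.99), Hspb1 (1.13 and 0.56) and Hsph1 (1.45 and 0.51) stand outside the cloud at the upper right, and the other members lie within it.

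Markers of fibroblasts and mesothelial cells, listed after the values were seen, took their highest level in the same array. Their summed intensity over 16 genes was 2881 and 1268 in the Flt3 KO arrays, against 1397 and 1030 in the WT arrays. In Flt3 KO all 16 were higher in replicate 1, and in WT 12 of 16 were. Of the 16, 5 were among the genes above with replicate 1 higher by at least 0.5 in both genotypes. Because the list was made after the values were seen, these sums and counts are no separate check on the chaperone pattern. The matrix gene Dcn read 9.78 and 7.85 in Flt3 KO, against 8.04 and 6.78 in WT, and Efemp1 read 7.81 and 5.73 in Flt3 KO, against 6.12 and 5.36 in WT. The markers did not all move alike. Sparc read 8.34 and 7.33 in Flt3 KO, against 7.92 and 7.50 in WT, and Col3a1 read 6.94 and 6.40 in Flt3 KO, against 6.49 and 6.32 in WT. The fibroblast receptor gene Pdgfra stayed between 4.87 and 5.06 and Lum between 2.91 and 3.05 on all arrays. None of the 16 passed between genotypes in limma, and 4 had an unadjusted p under 0.05 (25%, against 17.1% of all genes). In bulk arrays of this kind, more cells of a type and more RNA per cell cannot be told apart. The part of these markers in the chaperone values was not tested.

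Markers of monocytes and macrophages were ordered otherwise. Their summed intensity over 12 measured genes was 4377 and 5861 in the Flt3 KO arrays, against 3563 and 3218 in the WT arrays, so that Flt3 KO replicate 2 was highest. In limma 5 of 12 rose and none fell, where 1.08% of all genes rose. Among the 5 were Ccr2 (0.70), Fn1 (0.88), Cx3cr1 (1.03) and Cd14 (1.08). Hsph1 was lowest in that array, and Hspb1 was lowest in WT replicate 2. Hspa1a was nearly equal in these 2 arrays (7.49 in Flt3 KO replicate 2 and 7.52 in WT replicate 2). The part of the monocyte and macrophage markers in the chaperone values was not tested either.

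Immediate early genes are the other set known to respond to dissociation. Of 30 measured, 5 rose and 1 fell in Flt3 KO pDCs in limma, where 2.39% of all genes passed, and the median difference was 0.21. Without adjustment (p under 0.05), 14 were higher and 1 lower (50%, against 17.1% of all genes). The transcription factor gene Klf4 read 8.47 and 8.49 in Flt3 KO, against 8.09 and 7.99 in WT, and rose by 0.44. Dusp1, a MAP kinase phosphatase gene, read 11.40 and 11.87 in Flt3 KO, against 10.84 and 10.93 in WT, and rose by 0.75. Socs3, which encodes a cytokine signalling inhibitor, rose by 0.56 and Ier3 by 0.69. The nuclear receptor gene Nr4a2 (0.51) completes the 5 that rose, and the GTPase gene Rhob fell by 0.43; both are named after their values were seen. Limma adjusted p of these 6 genes lay between 0.022 and 0.049. Fos, Jun and Egr1 differed by 0.13, 0.21 and 0.15 without passing. The order of the arrays differed from that of the inducible chaperones: the list mean was 8.91 and 8.99 in Flt3 KO arrays and 8.80 and 8.71 in WT arrays. It was the order of the monocyte and macrophage markers, whose list mean was 8.18 and 8.53 in Flt3 KO arrays and 7.88 and 7.75 in WT arrays. The part of those markers in the immediate early values was not tested. With 1 array left out, 1 of 30 passed without Flt3 KO replicate 1 and 0 without any other array, and 0 passed without limma's intensity trend. Whether the genotype difference of this list and that of the chaperones differ was not tested.

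**Figure D4:**
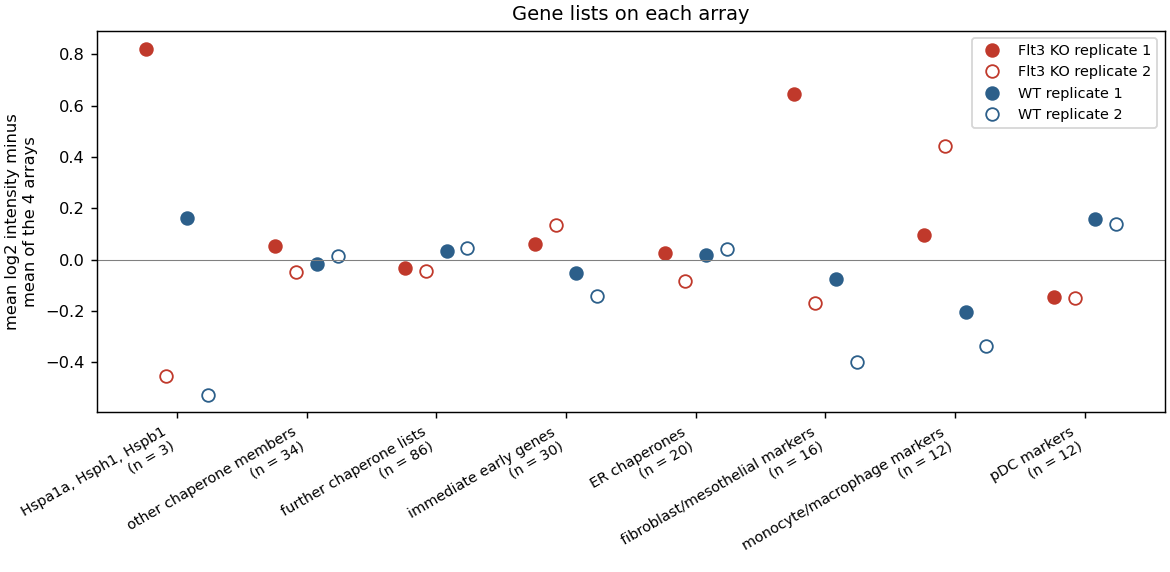
Mean log2 intensity of each gene list on each array, minus the list's mean over the 4 arrays, Flt3 KO in red left of WT in blue, filled for replicate 1 and open for replicate 2. Hspa1a, Hsph1 and Hspb1 together stood at 0.82 in Flt3 KO replicate 1 and −0.45 in replicate 2, whereas the other 34 members stayed between −0.05 and 0.05.

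Further genes of the chaperone network, outside the 40, passed about as often as all genes did. Of 86 measured in 5 lists, 2 fell and 0 rose in limma, where 2.39% of all genes passed. Without adjustment (p under 0.05), 15 were lower and 0 higher, or 17.4%, against 17.1% of all genes, of which 2020 were lower and 1385 higher. Their median difference was −0.065 and 67 lay below 0, against 10034 of 19938 genes; the lean to lower values was not tested. Both that fell were J protein genes. Dnajc13, whose product acts on endosomes, read 10.78 and 10.75 in Flt3 KO, against 11.17 and 11.06 in WT, and fell by 0.35 (limma adjusted p = 0.021). Dnajb2 read 8.08 and 8.05 in Flt3 KO, against 8.54 and 8.39 in WT, and fell by 0.40 (limma adjusted p = 0.045). The 29 genes of that list, of further Hsp70 and J proteins, had a median of −0.11. Calls of both genes were lost without limma's intensity trend and in each fit that left out an array.

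Cochaperones beyond the set (24 measured, median −0.05) had 0 past the threshold in limma and 4 lower without adjustment (p under 0.05), or 16.7%, near the 17.1% of all genes, with Hsbp1, a heat shock factor binding protein gene, at −0.22 and Ttc4 at −0.29. Small heat shock proteins (8, median −0.01) had 0 by either count, with Hspb6 at −0.17 and Cryab, the αB-crystallin gene, at 0.23. Cryab read 6.07 and 5.72 in the Flt3 KO arrays, against 5.84 and 5.49 in the WT arrays. Prefoldin subunits and CCT cofactors (15, median −0.09), which pass nascent actin and tubulin to CCT and assemble tubulin, had 0 and 4 lower (26.7%), with Pfdn1 at −0.34 (limma adjusted p = 0.078) and Pdcl3 at −0.24. Mitochondrial proteases and cofactors (10, median −0.05) had 0 and 1 lower (10.0%), with Clpb at −0.30 and Grpel2 at 0.18. The ER chaperone list held 20 genes, which answer to the unfolded protein response and not to heat shock factors. Not all are chaperone genes: Herpud1, Edem1 and Sel1l serve ER-associated degradation, and Ddit3 encodes a transcription factor. Herpud1 fell by 0.28 (limma adjusted p = 0.036), the other 19 did not pass, and the median was −0.03. Without adjustment (p under 0.05), 6 of the 20 were lower and 0 higher (30%, against 17.1% of all genes).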

How the data were processed

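Deposited values were the authors' processed probe set intensity on a linear scale, 1 column per array. No account of background correction, summarisation, normalisation or genome build is given in the sources used here. Array medians lay between 55.1 and 57.2. Of 30177 probe sets, 21789 were annotated to 1 symbol, 1621 to several and 6767 to none; the probe set with the highest mean stood for each of 19938 genes. All 37 measured members matched RefSeq symbols by gene identifier.

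Intensities were converted to log2 with no constant and no filter. Flt3 KO (2 arrays) was compared with WT (2) by limma 3.58.1 in R 4.3.3 (lmFit, eBayes with an intensity trend, no covariate), with Benjamini-Hochberg adjustment over all genes and a threshold of 0.05. Intervals are limma's moderated 95% ones. With 2 against 2, an exact two-sided permutation test cannot go below 0.333, and the number of arrays limits the precision.

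The members and lists were chosen with earlier results of these data known. Values on each array are given for the 3 members of each role with the largest absolute difference and for a fixed group of inducible genes; from other lists, up to 4 genes past the threshold or else the 2 with the lowest p are named, except that markers of other cell types are given by counts. Fos, Jun, Egr1, Hspd1 on each array and the fibroblast and mesothelial list were added after values were seen. Motifs were searched in RefSeq promoter windows with Python 3.11.15. The same replicate numbers occur in both genotypes, but nothing in the labels ties them. Alternatives were scaling, an added constant, a filter, probe set rules, variance settings, a replicate block and leaving out each array.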

Additional observations from a re-analysis of the deposited data

Results flagged for a closer look

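A probe set left out of the comparison because it is annotated to both Mir207 and Dnaja1 read 8.41 and 8.45 in the Flt3 KO arrays, against 8.20 and 8.30 in the WT arrays, so both Flt3 KO values lay above both WT values. Its difference was 0.18 (SE 0.070, limma adjusted p = 0.33 over all probe sets), whereas the 2 probe sets of Dnaja1 alone gave 0.10 and 0.11 with overlapping genotypes. It is listed because it lies outside the main measurement with Flt3 KO above WT. It is 1 of 10 shared probe sets, and genotypes did not overlap for 47.2% of all genes, so such a split is common in these data.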

How the results depend on the processing

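Of the 37 measured chaperone genes, 0 passed in limma under any alternative that kept all arrays. Their smallest adjusted p ran from 0.050 (Hspb1, replicate block) to 0.29 (all probe sets tested together). At an unadjusted p under 0.05 there were 2 with the replicate block, where 3130 of all 19938 genes had such a p. Each other alternative with all arrays had 1, as did the main fit, where 3405 of all genes had such a p. Differences of chaperone genes with 1 array left out are described below. Calls over all genes (476) became 724 with dim genes left out, 291 with all probe sets tested together and 108 with no intensity trend. Leaving out 1 array gave 0 to 54. Immediate early calls (6) became 0 with all probe sets and 0 with no trend, and 0 to 1 with an array left out. Calls among further chaperones (2) became 1 after quantile normalization, 0 with all probe sets, 0 with no trend, 1 with the replicate block and 0 with any array left out. The cause was not tested, beyond fewer samples or more features tested.

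The median difference of the chaperone set ran from −0.049 (without Flt3 KO replicate 1) to 0.055. Centring arrays moved the median of all genes to −0.037 and turned Dnaja2 (−0.012), Bag1 (−0.036), Hspd1 (−0.022), Cct2 (−0.029) and Cct3 (−0.024). Averaging probe sets turned Ptges3 (0.030) and Hspd1 (−0.066), and quantile normalization turned Dnajb14 (0.034). With an array left out, these members changed sign: Hspa1a (−0.53 to 0.72), Hsph1 (−0.46 to 0.99), Hspa8 (−0.12 to 0.20), Hspa4 (−0.026 to 0.13), Stip1 (−0.027 to 0.26), Chordc1 (−0.19 to 0.020), Ahsa1 (−0.20 to 0.036), Dnaja1 (−0.049 to 0.25), Dnajb1 (−0.19 to 0.098), Dnajb4 (−0.00021 to 0.27), Dnajb14 (−0.063 to 0.047), Bag1 (−0.0091 to 0.0098), Bag3 (−0.028 to 0.16), Hsf2 (−0.075 to 0.23), Hspd1 (−0.22 to 0.25), Cct2 (−0.011 to 0.026), Cct3 (−0.068 to 0.092), Cct6a (−0.0032 to 0.097), Cct8 (−0.019 to 0.26) and Tcp1 (−0.14 to 0.0088). A lone array was assumed to vary like the other genotype.

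The replicate numbers occur in both genotypes, but deviations of same-numbered samples correlated at −0.017 across genes over 2 pairs, which cannot settle whether the number marks a shared litter, sort or day, and no pairing was assumed. Replicate 1 was higher by at least 0.5 in both genotypes for 23 genes and replicate 2 for 2. With the replicate block, 375 genes, 0 chaperone members and 5 immediate early genes passed. Dim probe sets have little signal over background, which limits Dnajb4, Bag3 and Hsf2 most.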
